A study of Homo sapiens with 4 samples.

Results

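The genes described here are the cyclins, the cyclin-dependent kinases (CDKs), the CDK inhibitors, the E2F transcription factors, the MCM replication proteins and the genes named CDC after cell division cycle mutants. They were taken by gene name from lists of N7-methylguanosine (m7G) peaks of HepG2 cells, leaving out CDC42 and its effectors. The names picked 55 of the 8102 deposited peaks and 28 of the 3769 genes with any peak. Replicate 1 held 23 of these peaks in 18 genes, out of 3355 peaks in 2511 genes, and replicate 2 held 32 in 25 genes, out of 4747 peaks in 3205 genes. HepG2 is a human hepatocellular carcinoma line, grown here without treatment. Poly(A) RNA was pulled down with an antibody against m7G in 2 immunoprecipitation (IP) samples and sequenced beside 2 input samples that saw no antibody. What was analysed is 1 list of m7G peaks per IP sample, as the authors made it, in which each peak has its own fold enrichment and p-value. The lists do not give read depth, and single folds therefore carry no counting interval. Separate cultures for the replicates are not stated in the labels.

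Cyclins are regulatory subunits that switch on CDKs. Cyclin D1 with CDK4 or CDK6, and then cyclin E1, lead a cell towards DNA replication by way of the retinoblastoma proteins and the E2F factors, the MCM helicase opens DNA at replication origins, and CDC25 phosphatases and the CDC20-bound anaphase-promoting complex act on later steps. Other cyclins and CDKs, such as cyclin K with CDK12 or CDK13, act on RNA polymerase II rather than on the cell cycle. Every mRNA starts with an m7G cap, and m7G can also lie inside an mRNA. Removal of caps is not mentioned in the labels, so cap and internal m7G cannot be told apart in a peak that covers the 5' end.

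Where a peak reached the annotated start of its gene, the sequence there could be shown. The windows that follow hold the 70 nt before the annotated start and the first 30 nt of the gene, on the RNA's strand (RefSeq, GRCh38.p14), and capitals mark bases inside the deposited peak. They are shown for the 5 genes whose peak enters the window, since these are the sites closest to the cap.
CDC34, chr19:531690-531789, plus strand, both replicates: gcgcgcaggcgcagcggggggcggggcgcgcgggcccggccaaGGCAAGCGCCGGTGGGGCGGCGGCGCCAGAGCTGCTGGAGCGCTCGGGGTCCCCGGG
E2F4, chr16:67192085-67192184, plus strand, both replicates: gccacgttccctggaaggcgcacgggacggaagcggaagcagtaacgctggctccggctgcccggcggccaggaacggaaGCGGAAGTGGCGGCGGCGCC
E2F1, chr20:33686356-33686455, minus strand, replicate 1: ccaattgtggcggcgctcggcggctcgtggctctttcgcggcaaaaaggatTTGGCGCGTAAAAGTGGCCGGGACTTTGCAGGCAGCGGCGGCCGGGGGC
CDK9, chr9:127785964-127786063, plus strand, replicate 2: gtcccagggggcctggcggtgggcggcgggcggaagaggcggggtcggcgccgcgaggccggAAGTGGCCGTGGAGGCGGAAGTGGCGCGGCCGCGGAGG
CCNL2, chr1:1399306-1399405, minus strand, replicate 1: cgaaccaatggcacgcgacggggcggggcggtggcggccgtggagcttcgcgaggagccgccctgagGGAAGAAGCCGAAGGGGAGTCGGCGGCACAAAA

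The CDC34, E2F1, CDK9 and CCNL2 peaks began before the annotated first base, whereas the E2F4 peak began after it. Over these windows, the median content of G and C was 71.0% for the 11 member genes with a peak midpoint within 200 nt of the 5' end, 74.0% for the 1093 genes with such a peak, and 61.0% for the 27305 genes of the table. The letters CGGAAG, a core of ETS factor sites, were searched on both strands and occurred in 2 of the 11, CDK9 and E2F4 (18.2%), in 20.7% of the genes with such a peak, and in 11.3% of all windows. The E2F site letters TTTGGCGC, TTTGCCGC, TTTCGCGC or TTTCCCGC, also on both strands, occurred in 1 of the 11, E2F1 (9.09%), in 1.92% of the genes with such a peak, and in 1.16% of all windows. Over all 26 members with a window, whether or not a peak lay at the 5' end, the ETS letters occurred in 5 (19.2%) and the E2F letters in 4 (15.4%). The 4 were E2F1 and CDC25A, CDC37 and MCM2, of which the last 3 have no peak midpoint within 200 nt of the 5' end. The motifs were chosen after the windows were seen and describe the letters only.

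Which of these mRNAs carried a peak, and in which sample, was examined first. Of 105 protein-coding genes with these names in the RefSeq table, 28 had a peak in either list (26.7%, 95% Wilson interval 19.1 to 35.8%), beside 18.7% of all 20056 protein-coding genes. The lists hold no expression values, and a gene without a peak can lack m7G or mRNA. Peaks were found in both lists for 15 of the 28 genes (53.6%, 35.8 to 70.5%), beside 51.7% of all genes with a peak. These 15 made up 83.3% of the 18 genes of replicate 1 and 60.0% of the 25 genes of replicate 2, beside 77.5% and 60.7% over all genes of the lists. The share of genes found in both samples thus lay near that of all genes. At the level of sites, 12 of the 15 genes (80%, 54.8 to 93.0%) had a peak that overlapped between the lists by at least 50% of the shorter peak, beside 87.7% of all genes in both lists. Among them were 3 E2F genes, 4 cyclin genes and MCM2.

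Among the cyclins, 6 of 27 genes had a peak, and 4 of them, CCND1, CCNE1, CCNI and CCNK, had an overlapping peak in both samples. CCND1, which encodes the D-type cyclin that partners CDK4 and CDK6, had a peak at chr11:69653215-69653305 with the same boundaries in both lists. Its folds were 2.84 in replicate 1 and 3.16 in replicate 2. The value 3.16 stood at 90 peaks of replicate 2, where this CCND1 peak had a -log10 p of 3.36. Its midpoint lay 1214 nt from the 3' end of the gene, and replicate 2 held another CCND1 peak 150 nt from that end with a fold of 2.49. CCNE1, the E-type cyclin that activates CDK2, had folds of 4.0 and 4.33. Its peak was spliced, that is, joined several genomic blocks: chr19:29812053-29812551 in replicate 1 and chr19:29812083-29812750 in replicate 2, where it ran into a further block of 62 nt. Counted on the genome with introns included, the midpoint was 121 nt from the 5' end in replicate 1 and 560 nt in replicate 2. The first block ended at 29812152 in both lists. The replicate 2 midpoint fell in the next block, beyond an intron, so the 2 distances do not measure a shift along the mRNA.

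CCNI, an atypical cyclin, had the smallest p-values of all the member peaks, with -log10 p of 84.6 in replicate 1 and 69.2 in replicate 2, while its folds were moderate, at 2.95 and 2.86. Both CCNI peaks lay near the 5' end, with midpoints at 300 nt and 345 nt. CCNK encodes cyclin K, the partner of CDK12 and CDK13. It had 2 peaks in each list, and all were near 3' parts of the gene, 1794 to 2183 nt from its end. The CCNK peak at chr14:99510557-99510736 in replicate 1 and chr14:99510467-99510766 in replicate 2 had folds of 2.67 and 2.5. The other, at chr14:99510198-99510407 and chr14:99510168-99510347, had 2.65 and 2.05. CCNL2, a cyclin that acts with CDK11 kinases in splicing, had a peak in replicate 1 alone (fold 5.71), and CCNG1, a p53 target, in replicate 2 alone (fold 2.02). Both of these lay at the 5' end. The other 21 cyclin genes, with the mitotic cyclin genes CCNA2, CCNB1 and CCNB2 among them, had no peak.

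**Figure D1:**
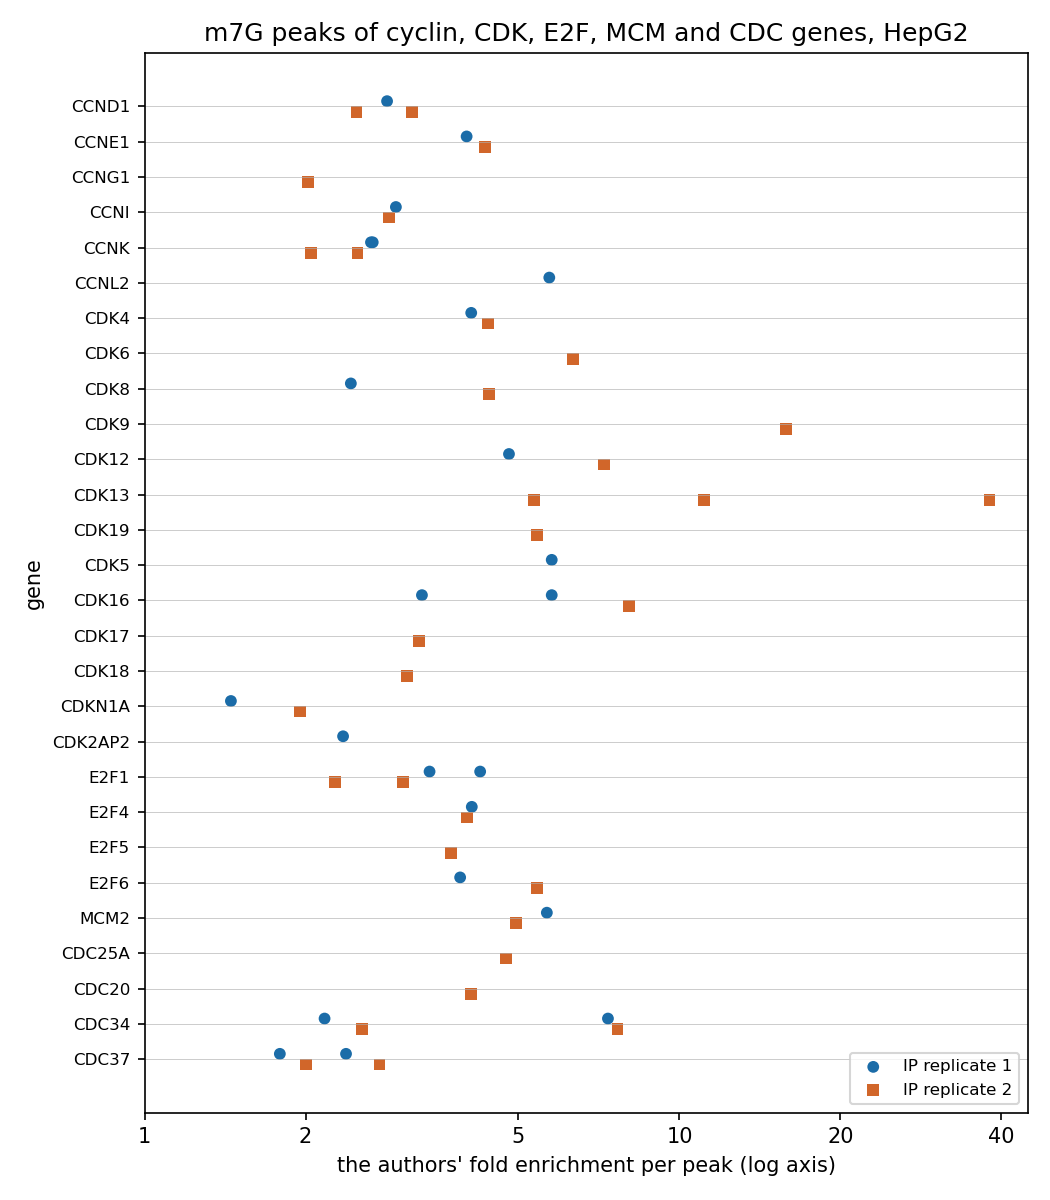
The authors' fold enrichment of each peak (log axis) is plotted for the 28 genes, with circles for IP replicate 1 and squares for IP replicate 2. Most points lie between 1.45 and 8.05, and the highest is the CDK13 peak of replicate 2 at 38.0.

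The CDKs of the start of the cell cycle were CDK4 and CDK6, the partners of D-type cyclins. CDK4 had a peak near its 3' end in both samples, at chr12:57747787-57747936 with a fold of 4.08 in replicate 1 and at chr12:57747906-57747966 with a fold of 4.38 in replicate 2. The CDK4 peaks shared 31 nt, which was 50.8% of the shorter one and just above the 50% required. CDK6 had a peak in replicate 2 alone, with a fold of 6.33 at 3033 nt from the 5' end. That value, 6.33, was the commonest fold of replicate 2 and stood at 196 of its peaks. CDK1 and CDK2, the kinases of mitosis and of DNA replication, had no peak.

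Of the CDKs that act on transcription, CDK8 and CDK12 had peaks in both lists and CDK9, CDK13 and CDK19 in replicate 2 alone. CDK13, which phosphorylates RNA polymerase II, had 3 peaks near its start, with midpoints 328, 523 and 822 nt from the 5' end and folds of 5.35, 11.1 and 38.0. The last was the highest fold of any member peak in either list, at a -log10 p of 5.64, and 16 peaks of that list carry the same value. CDK9, the kinase of the elongation factor P-TEFb, had a fold of 15.8 in replicate 2, with a -log10 p of 8.71 and a midpoint 81 nt from the 5' end; the same fold stood at 35 peaks of the list. CDK12 had a peak in both lists but at separate places, 69553 nt apart. The replicate 1 peak, with a fold of 4.8, lay 69729 nt into the gene, and the replicate 2 peak, with a fold of 7.23, lay 115 nt from the 5' end. CDK8 and its paralogue CDK19 are kinases of the Mediator complex. CDK8 had neighbouring 5' peaks that were separated by 89 nt, with a fold of 2.43 in replicate 1 and 4.4 in replicate 2. CDK19 had a peak in replicate 2 alone (fold 5.42), 11225 nt from the 3' end.

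The remaining kinases were CDK5, best known for its role in neurons, and its relatives CDK16, CDK17 and CDK18, the PCTAIRE kinases. Of these 4, CDK16 alone had a peak in both lists, near the 3' end. Its peaks were chrX:47229666-47229756 (fold 3.3) and chrX:47229846-47229905 (fold 5.77) in replicate 1, and a single longer peak in replicate 2, chrX:47229636-47229846 (fold 8.05). CDK5 had a fold of 5.77 in replicate 1 alone, 86 nt from the 3' end, a value found at 30 peaks of that list. CDK17 (fold 3.26) and CDK18 (fold 3.09) had 5' peaks in replicate 2 alone. Of the 9 CDKs with a peak outside the D-cyclin partners, 3 had peaks in both lists, beside 51.7% of all genes with a peak. The others were 1 in replicate 1 alone and 5 in replicate 2 alone. Of the 3, 1 gene had an overlapping peak, beside 87.7% of all genes in both lists. Among 28 genes with a CDK name, CDK2AP2 included, 12 had a peak and 16 had none, beside a peak in 18.7% of all protein-coding genes.

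Of the 10 genes with a CDKN name, CDKN1A had peaks, and the other 9 had none. CDKN1A encodes the inhibitor p21, which p53 induces. It had the lowest fold of the member peaks in each list, 1.45 in replicate 1 and 1.95 in replicate 2, at places separated by 176 nt towards the 3' end of the gene. CDK2AP2, which encodes a CDK2-associated protein, had a fold of 2.35 in replicate 1 alone, 156 nt from the 3' end.

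All 4 E2F genes with a peak had one within 500 nt of the 5' end. Over all peaks, counted by peak and not by gene, 39.4% of replicate 1 and 33.8% of replicate 2 lay there. Overlapping peaks in both lists were found for 3 of the 4, at the 5' end for E2F4 and E2F6 and at the 3' end for E2F1. Over all genes in both lists, 87.7% had an overlapping peak. E2F4, an E2F factor that mainly represses in complex with pocket proteins, had identical spliced boundaries in both lists, chr16:67192165-67192773, in blocks of 198 and 13 nt, with folds of 4.09 in replicate 1 and 4.0 in replicate 2. Its -log10 p was 16.9 and 18.6. E2F6, a repressor that binds Polycomb proteins, had folds of 3.89 at chr2:11465998-11466087 in replicate 1 and 5.42 at chr2:11465968-11466087 in replicate 2. E2F1, an activator of replication genes, had a peak at each end of the gene in each list. The 3' peaks overlapped by 31 nt, or 50.8% of the shorter one, at chr20:33675936-33675996 (fold 3.41) and chr20:33675726-33675966 (fold 3.04). The 5' peaks of E2F1 did not overlap: chr20:33686314-33686404 in replicate 1 (fold 4.24) covers the annotated start shown above, and chr20:33686014-33686194 in replicate 2 (fold 2.27) lay further in. Both 5' peaks were weak, with -log10 p of 3.44 in replicate 1 and 3.01 in replicate 2. E2F5 had a fold of 3.74 in replicate 2 alone, 409 nt from the 5' end. E2F2, E2F3, E2F7 and E2F8 had no peak.

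MCM2, a subunit of the replicative helicase, was the sole gene with a peak among 10 whose names begin with MCM. Its spliced peak lay inside the gene, 6357 nt from the 5' end in replicate 1 and 6514 nt in replicate 2, at chr3:127604649-127605000 and chr3:127604739-127605000. The folds were 5.65 and 4.95, and both lists placed the second block at the same 105 nt.

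Of 22 genes with a CDC name, 4 had a peak. CDC34, the ubiquitin-conjugating enzyme that works with SCF ligases, had peaks at both ends of the gene in both samples. The 5' peak, chr19:531733-531998 in replicate 1 and chr19:531733-532057 in replicate 2, had folds of 7.35 and 7.66 and -log10 p of 50.9 and 44.8. No other overlapping member peak was as highly enriched in both lists. The 3' peak, chr19:541615-542058 and chr19:541615-541999, had lower folds of 2.17 and 2.55. CDC37, a kinase-specific partner of the chaperone HSP90, also had 2 peaks in each list. One joined a block of 9 nt to a longer block across an intron, at chr19:10395974-10403386 (fold 2.38) and chr19:10395944-10403386 (fold 2.75). The other lay at the 3' end, at chr19:10391222-10391521 (fold 1.79) and chr19:10391163-10391491 (fold 2.0). CDC25A, a phosphatase that activates CDK2, and CDC20, the activator of the anaphase-promoting complex, had peaks in replicate 2 alone, with folds of 4.74 and 4.07 at 495 and 268 nt from the 5' end. Neither was found in replicate 1. The CDC20 peak had a -log10 p of 2.9, the weakest of all member peaks, and its fold stood at 23 peaks of the list.

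The strength of enrichment was then set beside that of all peaks. The median fold of the member peaks was 3.41 in replicate 1 and 4.04 in replicate 2, beside 3.71 and 3.87 over all peaks, so the member median was the lower one in replicate 1 and the higher one in replicate 2. Their mean over the replicates was 3.72 ± 0.44 (SD, n = 2) for the members and 3.79 ± 0.11 (SD, n = 2) for all peaks, a difference smaller than the spread between replicates. Member folds ranged from 1.45 to 7.35 in replicate 1 and from 1.95 to 38.0 in replicate 2. Median peak length was 150 nt and 180 nt for the members, and 151 nt in both lists for all peaks.

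**Figure D2:**
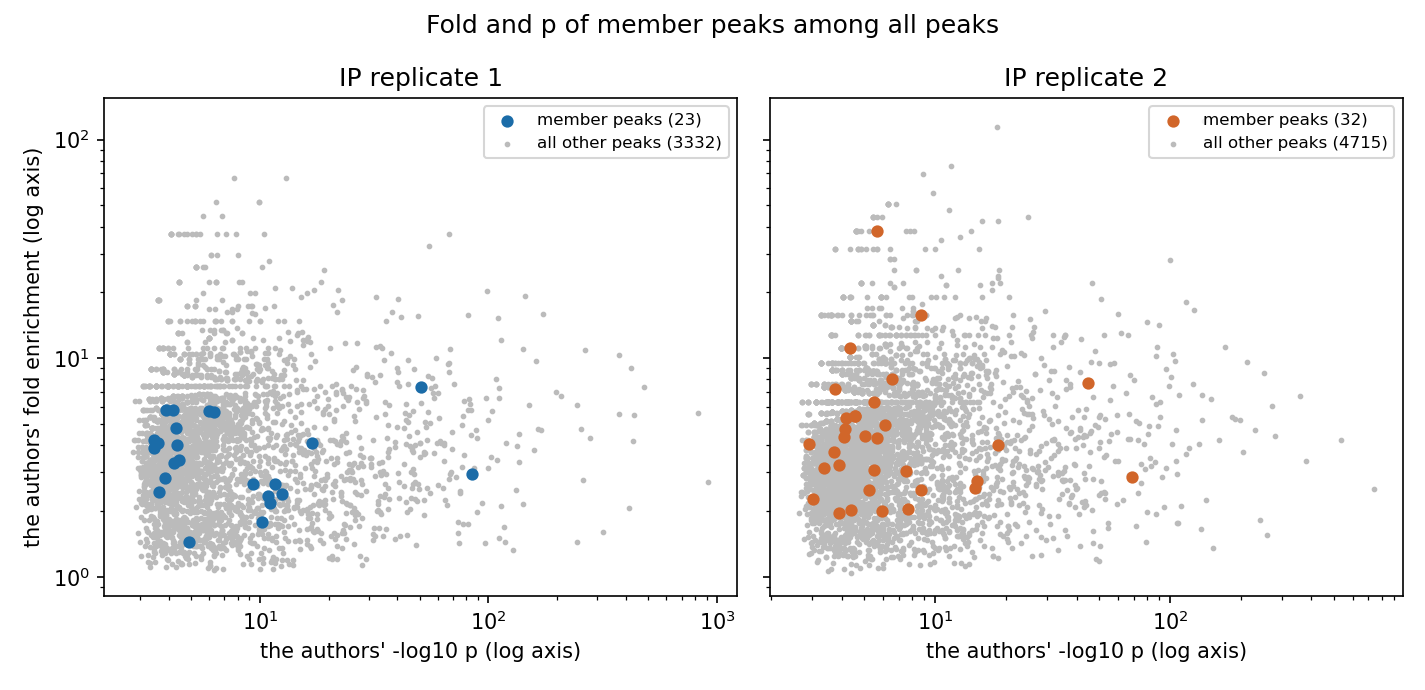
Fold enrichment is plotted against -log10 p (both log axes) for the member peaks in colour and all other peaks in grey, with IP replicate 1 on the left and replicate 2 on the right. The member peaks lie within the cloud of all peaks. Among the member peaks, CCNI lies farthest to the right, at a -log10 p of 84.6 and 69.2, and CDK13 is highest in replicate 2 with a fold of 38.0. Over all peaks, -log10 p reaches 916 in replicate 1 and 738 in replicate 2, and the fold reaches 122 in replicate 2.

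Of the member peaks, 15 of 23 in replicate 1 (65.2%) and 15 of 32 in replicate 2 (46.9%) overlapped a peak of the other list, beside 65.1% and 45.4% of all peaks. The mean share was 56.0% ± 12.97 (SD, n = 2), and 55.2% ± 13.9 (SD, n = 2) over all peaks. Folds of 14 of the 15 shared member peaks lay within 1.5 times of each other (93.3%, 70.2 to 98.8%), beside 72.6% of all 2128 shared peaks. The exception was CDK16, whose replicate 2 fold was 2.44 times that of replicate 1. The interval of the members includes the 72.6% of all shared peaks. It also treats the 15 as independent, although CCNK, CDC34 and CDC37 each gave more than 1. Across these 15 peaks the folds had a Spearman's rho of 0.81, and 0.80 across all shared peaks. The peaks of a gene share their mRNA, and the authors' scaling and the libraries behind the fold are not given, so rho is a description of these lists.

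The 3 genes present in both lists at separate places were CDK8, CDK12 and CDKN1A. Their -log10 p lay between 3.61 and 5.05, and the median of all member peaks was 4.9 in replicate 1 and 5.37 in replicate 2. Some overlapping member peaks had values as low, such as 3.43 for E2F6 in replicate 1 and 3.36 for CCND1 in replicate 2, and others reached 84.6.

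The position of the peaks along the genes was compared last, with distances counted on the genome, introns included, between a peak's midpoint and the annotated start or end. Within 200 nt of the 5' end lay 7 of 23 member peaks in replicate 1 (30.4%) and 7 of 32 in replicate 2 (21.9%), beside 27.4% and 21.7% of all peaks. The mean was 26.2% ± 6.05 (SD, n = 2) for the members and 24.5% ± 4.03 (SD, n = 2) for all peaks, again within the spread between replicates. CDC34, E2F4 and E2F6 had such a peak in both lists, CCNE1, CCNL2, CDK8 and E2F1 in replicate 1, and CCNG1, CDK9, CDK12 and CDK18 in replicate 2. Within 500 nt the shares were 34.8% and 46.9%, beside 39.4% and 33.8% of all peaks. Member peaks within 200 nt of the 5' end had a median fold of 4.09 in replicate 1 and 5.42 in replicate 2, and other member peaks had 2.90 and 3.74. Over all peaks the medians were 4.95 and 4.92 at the 5' end and 3.4 and 3.61 elsewhere, so the higher median at the 5' end was present in the lists as a whole.

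**Figure D3:**
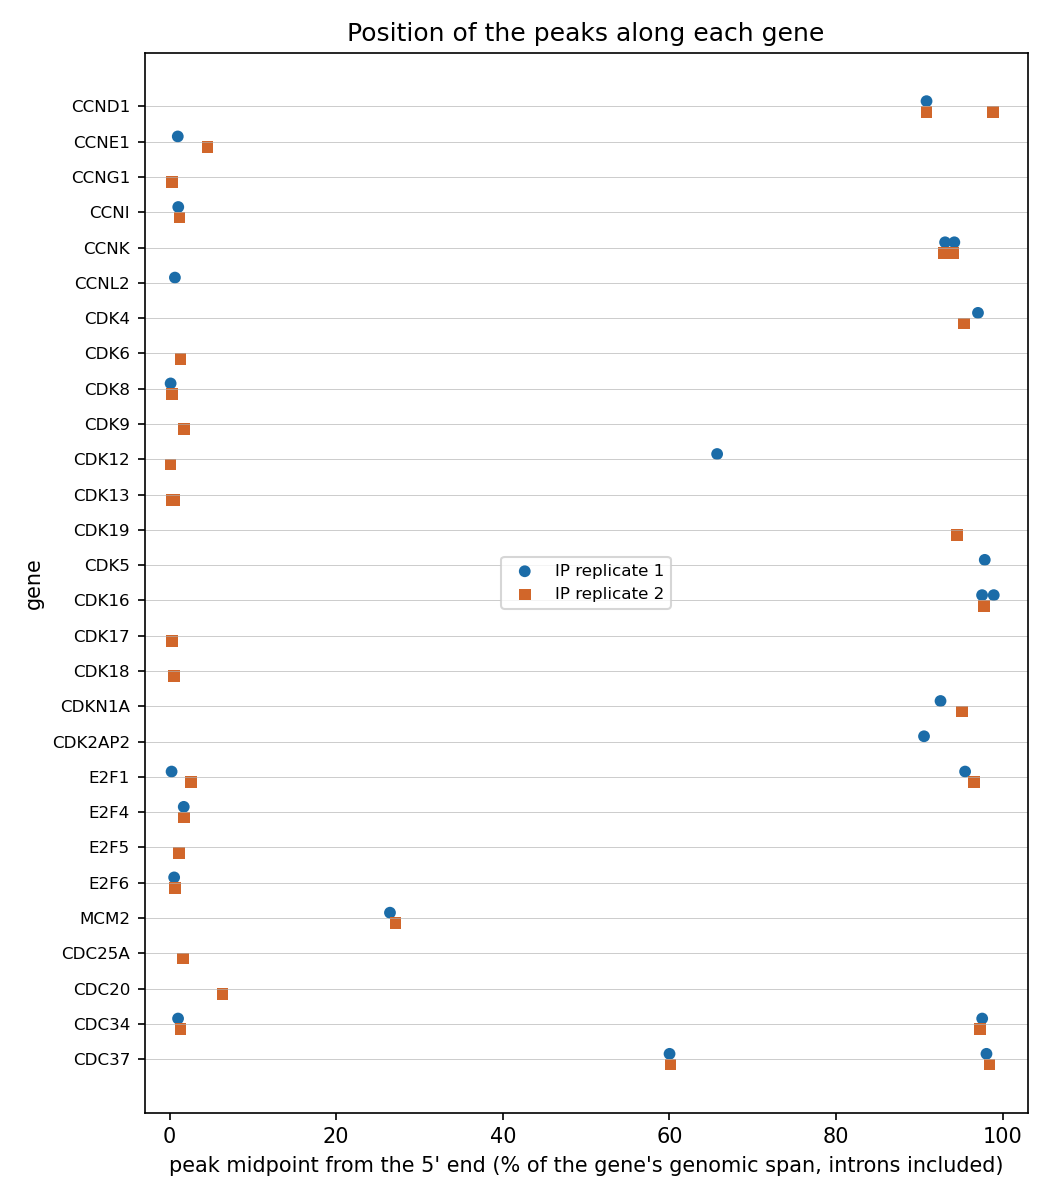
The midpoint of each member peak is plotted as a percentage of the gene's genomic span from the 5' end, with circles for IP replicate 1 and squares for replicate 2. Peaks gather at the left and right edges, and MCM2 at 26.5% and 27.1%, CDC37 at 60.0% and 60.1% and CDK12 of replicate 1 at 65.7% lie between them. Introns count in these percentages, so they are not places along the mRNA. The same CDC37 peak also holds a block of 9 nt, chr19:10403378-10403386, across an intron and near the gene's 5' end at 10403542.

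At the 3' end the member shares exceeded those of all peaks in both lists. Midpoints within 500 nt of the 3' end were found for 8 of 23 member peaks in replicate 1 (34.8%, 18.8 to 55.1%) and 6 of 32 in replicate 2 (18.8%, 8.89 to 35.3%), beside 9.4% and 9.64% of all peaks. Within 200 nt the counts were 4 of 23 (17.4%) and 2 of 32 (6.25%), beside 3.43% and 3.48%. The genes with a peak within 500 nt in both lists were CDC34, CDC37, CDK4, CDK16 and E2F1, with CDK2AP2 and CDK5 added in replicate 1 and CCND1 in replicate 2. This window was looked at after the values were seen, and the interval of replicate 2 includes the share of all peaks. The intervals treat peaks as independent, although the 8 peaks of replicate 1 came from 7 genes. The 2 lists are not separate evidence either, since the 5 genes named first supplied peaks to both. The 5 genes have a median span of 10909 nt, the 28 members one of 16848 nt and all genes with a peak one of 25080 nt, and the part of gene length in the result was not tested. Whether the peaks lie in untranslated or coding sequence was not analysed here.

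**Figure D4:**
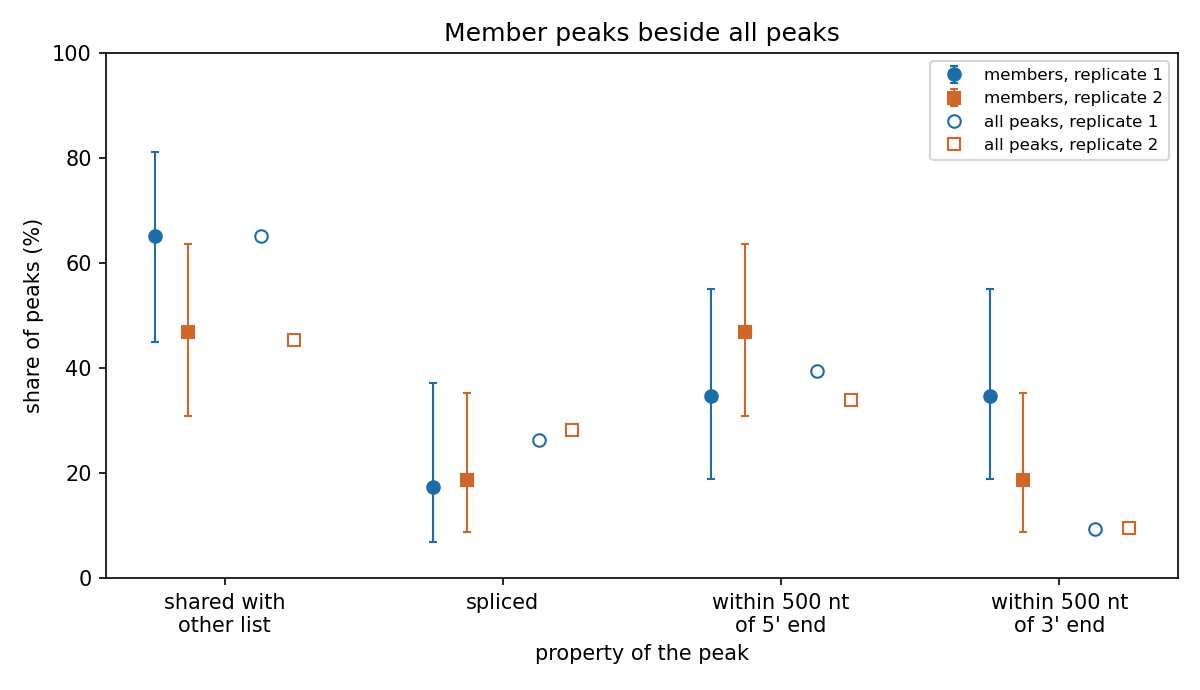
The share of peaks (%) with each property is plotted for the member peaks (filled, with 95% Wilson intervals for counting error) and beside them for all peaks (open), with circles for IP replicate 1 and squares for replicate 2. The filled points lie above the open ones in both replicates within 500 nt of the 3' end (34.8% and 18.8%, beside 9.4% and 9.64%) and below them for spliced peaks.

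Spliced peaks made up 4 of 23 member peaks in replicate 1 (17.4%) and 6 of 32 in replicate 2 (18.8%), beside 26.4% and 28.2% of all peaks. CCNE1, CDC37, E2F4 and MCM2 were spliced in both lists, and CCNI and CDK18 in replicate 2. The Wilson intervals of the members, 6.98 to 37.1% and 8.89 to 35.3%, hold the shares of all peaks.

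Other genes of cell cycle control that do not carry these names were read from a list of 74, chosen with earlier results of these data known. A peak was present in 19 of the 74, beside 18.7% of all protein-coding genes. Of the 19, 8 had one in both lists (42.1%, beside 51.7% of all genes with a peak), 8 in replicate 1 alone and 3 in replicate 2 alone. An overlapping peak was found in 6, and the folds below are those of each gene's overlapping pair with the best lower fold rank. RB1, the retinoblastoma protein that E2F factors bind, had folds of 2.87 in replicate 1 and 2.29 in replicate 2. WEE1, the kinase that restrains CDK1, had 14.8 and 4.85, and FZR1, a further activator of the anaphase-promoting complex, had 10.4 and 6.33. CDT1, which loads the MCM helicase, had 6.97 and 5.14, FOXM1, a transcription factor of mitotic genes, had 5.56 and 5.23, and MYC had 2.07 and 1.73. The fold of FZR1 in replicate 2 equals the commonest fold of that list, and 14.8 and 10.4 also stood at peaks of other genes in replicate 1. Of these 6 genes, 4 had further peaks. Those of WEE1 had folds of 3.04 and 1.94 in replicate 1. FZR1 had 3.57 in replicate 1 and 3.16 and 4.38 in replicate 2, and CDT1 had 6.33 and 3.54 in replicate 2. MYC had 1.69 and 1.39 in replicate 1 and 1.64 and 1.35 in replicate 2. Of 21 hepatocyte and hepatoma marker genes, 13 had a peak in both lists and 8, ALB and AFP among them, had none. Over all protein-coding genes, 18.7% had a peak in either list. Peaks in both lists were also found for 2 of 5 immune markers and 1 of 5 endothelial and stellate markers. Without expression values, these counts do not check the cell line.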

How the data were processed

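Each of the 2 m7G IP samples of HepG2 cells has 1 peak list. The aligner STAR and the build GRCh38 appear, with no role stated, per the submitters' processing notes; the peak caller is not given in the sources used here. Per the file headers, the deposited lists give for each peak its position, exon blocks, p-value, log10 p and log10 FDR (used as scores, with the sign turned) and fold enrichment (a ratio). The weakest FDR in the deposited lists had a -log10 of 1.32. Each value is the authors' own per peak, and served to describe and rank. Peaks were tied to gene spans and start windows of RefSeq GRCh38.p14; all 55 member peaks matched by symbol, and 26 of 28 genes had a window. Overlap required the same gene and strand and 50% of the shorter peak in exon blocks. Shares of shared peaks count every peak of a list that meets this, and the folds of shared peaks were compared over one-to-one matches. Lists of different size, with 1 condition, allow no test between groups, so shares are given with Wilson intervals (95%, counting error only) or as mean ± SD over 2 lists. The overlap code was tested on simulated data. The members and lists were chosen with earlier results of these data known. Genes were named as follows: every member, with coordinates for the 8 overlapping peaks best by lower fold rank and for genes with several peaks in both lists, and pathway genes with an overlapping peak. Other overlaps, p-values, windows and gene sets were tried. The computations used scipy 1.17.1, pandas 2.3.3 and numpy 2.4.6 under Python 3.11.15, with plots drawn in matplotlib 3.10.9.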

Additional observations from a re-analysis of the deposited data

How the results depend on the processing

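Counts of member genes in both lists were 15 by name and 12 with an overlapping peak, by 50% of the shorter peak or by 1 base, and 14 without CDC37 and CDK2AP2. The number was 5 when the overlap had to be 80% of both peaks, and 6 when each list was limited to its 50% of peaks with the lowest p-values, where fewer peaks enter by construction. Member peaks shared between lists fell to 26.1% with 80% reciprocal overlap, against 56.0%. The 5' share was 7.47% within 100 nt and 40.8% within 500 nt, against 26.2% within 200 nt. Over all peaks it was 36.6% within 500 nt and 24.5% within 200 nt, and no share within 100 nt is given here. The 3' share, examined after the values were seen, was 26.8% within 500 nt against 11.8% within 200 nt. Wider windows hold more peaks by construction. The median fold was 2.88 under the limit on p-values and 3.23 for shared peaks only, against 3.72 (the cause was not tested). Folds within 1.5 times made up 100% of the 7 pairs with 80% reciprocal overlap and of the 9 pairs left by the limit on p-values. Without one replicate, the shared share ranged from 46.9 to 65.2%, the 5' share from 21.9 to 30.4%, the median fold from 3.41 to 4.04 and the 3' share from 6.25 to 17.4%; the last thus rests largely on replicate 1. No paired analysis was possible because the input samples have no peak lists here. The depth of each library is not given, and its part in which peaks reached the lists was not tested.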

Other observations

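Many folds recur in the lists. In replicate 2 these include the 4.74 of CDC25A, at 52 peaks, and the 7.23 of CDK12, at 39 peaks. In replicate 1, 13 of 23 member peaks (56.5%) had a fold that 10 or more peaks of that list carry, and in replicate 2 it was 21 of 32 (65.6%), beside 48.8% and 65.9% of all peaks. The E2F6 and CDK19 peaks of replicate 2 had the same fold, 5.42, and the same -log10 p, 4.54, and 8 peaks of that list hold both values. CDC34 at its 5' end in replicate 1 had a fold found at no other peak of its list. Of markers of other cell types, CD68 and LYZ of the 5 immune genes and ACTA2 of the 5 endothelial and stellate genes had a peak in both lists.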
